A study of Mus musculus with 6 samples.

Results

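The heme, iron and Nrf2 genes described here are Hmox1, Nqo1, Nfe2l2, Fth1, Ftl1, Slc40a1, Slc11a1 and Tfrc. These 8 genes were taken by symbol from the 38293 gene identifiers counted in 6 single-cell RNA libraries of mouse spinal cord. Cells of C57BL/6 mice, 10 weeks old, were stained with DCFDA at 10 µM. Oxidation of this dye by reactive oxygen species (ROS) makes it fluoresce. Cells were sorted on the myeloid surface protein CD11b and on the dye. The groups were ROS+ cells and ROS- cells of mice with EAE at onset (score 1), and ROS- cells of healthy mice, with 2 libraries each. EAE stands for experimental autoimmune encephalomyelitis, here raised with the myelin peptide MOG35-55 to model multiple sclerosis. No genetic change was labelled in any group, and dye, strain and age were common to all libraries. No label says whether 2 libraries of a group are of different animals. Every p-value therefore rests on these libraries only and is not read as a spread between animals.

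Hmox1 encodes heme oxygenase 1, which opens the heme ring and sets free iron, biliverdin and carbon monoxide. Freed iron is stored in ferritin, a hollow shell built of heavy (Fth1) and light (Ftl1) chains, or leaves the cell through ferroportin (Slc40a1). Iron bound to transferrin enters through the transferrin receptor (Tfrc), and a working Slc11a1 (Nramp1) protein pumps metal ions out of the phagosome of macrophages. Nrf2 (Nfe2l2) is a transcription factor that Keap1 holds at low levels until oxidants or electrophiles modify Keap1; its known targets include Hmox1, Nqo1, both ferritin chains and Slc40a1, and Bach1 represses several of them until it binds heme.

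Iron also controls these messages after transcription. When iron is scarce, iron regulatory proteins bind hairpins called iron-responsive elements: on a hairpin in the 5′ untranslated region they block translation, and on hairpins in the 3′ untranslated region of Tfrc they protect the message. Transcript counts, as measured here, record only the second kind of control. The elements are printed because they set the ferritin chains, the exporter and the importer apart from the rest of the genes. A search of annotated untranslated regions (GENCODE M21, GRCm38) was made on the strand of the transcript. It used the loop CAGTGN, N being A, C or T, closed by a stem of 5 base pairs (G-T pairs allowed) with an unpaired C on its 5′ side. It misses elements that depart from this pattern. It found 1 element in the 5′ untranslated region of Fth1 (chr19:9982734-9982758, plus strand), Ftl1 (chr7:45459781-45459805, minus strand) and Slc40a1 (chr1:45925467-45925491, minus strand). It found 4 in the 3′ untranslated region of Tfrc (chr16, plus strand, at 32631221-32631245, 32631600-32631624, 32631665-32631689 and 32631712-32631736). The 25 bases of each element read 5′ to 3′, with the 6 bases of the loop in capitals:
Fth1: cctgcttcaaCAGTGCttgaacgga
Ftl1: cttgcttcaaCAGTGTttgaacgga
Slc40a1: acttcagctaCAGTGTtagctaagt
Tfrc element 1: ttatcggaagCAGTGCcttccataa
Tfrc element 2: ttatcgggagCAGTGTcttccataa
Tfrc element 3: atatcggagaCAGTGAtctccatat
Tfrc element 4: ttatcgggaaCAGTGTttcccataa

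Such a hairpin was found in the 5′ untranslated region of 23 of 20899 genes (0.110%) and in the 3′ untranslated region of 100 of 21022 genes (0.476%). The elements of Fth1, Ftl1 and Slc40a1 lie 115, 153 and 207 bases before the start codon. The search found none in Hmox1, Nqo1, Nfe2l2 or Slc11a1, which says only that this pattern is not in their annotated regions. On GRCm38 the genes themselves lie on chromosome 1 (Slc40a1, 45908070-45926532, minus strand, 8 exons; Slc11a1, 74375014-74386057, plus strand, 15 exons), chromosome 2 (Nfe2l2, 75675513-75704663, minus strand, 5 exons), chromosome 7 (Ftl1, 45457944-45459886, minus strand, 4 exons) and chromosome 8 (Hmox1, 75093618-75100593, plus strand, 5 exons; Nqo1, 107388225-107403205, minus strand, 6 exons). Tfrc is on chromosome 16 (32608896-32632794, plus strand, 19 exons) and Fth1 on chromosome 19 (9980600-9985111, plus strand, 5 exons).

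The EAE ROS+ libraries held 1745 and 2233 cells, the EAE ROS- libraries 1614 and 1529, and the healthy libraries 1755 and 202. The median number of unique molecular identifiers (UMIs, 1 per captured transcript) per cell ran from 2178 in healthy replicate 1 to 9543 in EAE ROS+ replicate 1. Healthy replicate 2 stood apart by its few cells and by endothelial marker genes. These were at 2.85 per 10000 UMIs in its microglia and at 0.162 or less in the microglia of the other libraries. The files held 9079 barcodes, of which 9078 were kept, and the study states 8701 cells. In all, 42 barcodes occurred in more than 1 library. A cell with at least 5 marker UMIs was called microglia-like (Tmem119, P2ry12, Sall1 and 7 more genes) or monocyte-derived-like (Ccr2, Ly6c2, Fn1 and 10 more) when at least 60% of its class marker UMIs were of that list. It was called dendritic cell-like with at least 25% from dendritic markers (Flt3, Ccr7, Ccl22 and 7 more). None of the 8 genes was a marker. Monocyte-derived-like cells numbered 1698 and 2194 in EAE ROS+ and 897 and 1159 in EAE ROS- libraries, with 0 in healthy ones. Microglia-like cells numbered 26 and 19 (EAE ROS+), 527 and 236 (EAE ROS-) and 1747 and 192 (healthy ROS-). There were 1 and 1 dendritic cell-like cells in EAE ROS+ and 38 and 57 in EAE ROS- libraries. Hemoglobin and other red blood cell markers had 0 UMIs in microglia-like and dendritic cell-like cells and at most 1 UMI in the monocyte-derived-like cells of any library.

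Detection ranged from near universal to nearly absent. Fth1 had 2413819 UMIs in all and was found in 99.8% of cells, and Ftl1 had 717169 UMIs in 99.4% of cells. Nfe2l2 (19961 UMIs, 69.9% of cells), Slc11a1 (11187 UMIs, 52.5%) and Hmox1 (10698 UMIs, 45.0%) were well sampled. Slc40a1 had 537 UMIs in 4.97% of cells, Tfrc 247 in 2.52% and Nqo1, the NAD(P)H quinone reductase often read as an Nrf2 reporter, 15 in 0.165%. Near copies of the ferritin genes were counted separately, with 6309 UMIs for Ftl2 and 1098 for Fth-ps2, so reads of the ferritin chains may have been split and their values are uncertain to that extent.

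Ferritin rose in the microglia of EAE mice while the exporter fell. This comparison asked how microglia differ at disease onset within the gate that both groups share, ROS-. Fth1 stood at 12240 and 9969 CPM, that is UMIs per 1000000 UMIs of the class, in EAE ROS- microglia-like cells, against 3813 and 4273 CPM in healthy ones. A lack of overlap alone decides nothing, here or below, as the exact permutation test of 2 against 2 libraries cannot go below p = 0.33. Both EAE libraries lay above both healthy libraries. The fold was 3.15 (log2 1.66 ± 0.28 SE, adjusted p = 1.20e-04; edgeR quasi-likelihood test on UMI sums per library, adjusted by Benjamini-Hochberg over all genes tested and passed at an adjusted p under 0.05, as in every test below). The light chain Ftl1 was at 7136 and 4676 CPM in EAE ROS- and 3074 and 2579 CPM in healthy microglia, again without overlap, a 2.42-fold rise (log2 1.28 ± 0.28, adjusted p = 0.00145). Without EAE ROS- replicate 1, its log2 change was 0.85 and did not pass. Pooled T and natural killer cells of the EAE ROS- libraries were at 14522 and 29189 CPM of Fth1 and 6167 and 7452 CPM of Ftl1. The pooled Fth1 of EAE ROS- microglia was thus not above such a background. Fth1 and Ftl1 together took a median of 0.729% and 0.895% of UMIs in single T and natural killer cells, against 1.54% and 1.13% in EAE ROS- microglia. The part of free RNA from monocyte-derived-like cells in the ferritin rise was not tested.

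Slc40a1, the only known cellular iron exporter, went the other way. The EAE ROS- microglia held 30 and 8 UMIs of it (6.79 and 6.24 CPM), against 400 and 35 in healthy microglia (90.5 and 44.1 CPM). The EAE libraries were below both healthy libraries, 9.05-fold on the fitted scale (log2 -3.18 ± 0.36, adjusted p = 5.29e-07). The value was -2.54 without healthy replicate 1 (adjusted p = 0.00165) and -3.46 when microglia with any endothelial UMI were left out. With each cell thinned to 1500 UMIs, 0.949% and 0.847% of EAE ROS- microglia had a Slc40a1 UMI, against 13.3% and 6.59% of healthy ones. Unthinned, the shares were 4.93% and 2.54% against 19.2% and 16.7%, although the EAE cells were the deeper ones. In T and natural killer cells of the EAE ROS- libraries, which should lack the gene, 8.11% of 37 and 0% of 33 cells had a UMI unthinned and 0% thinned, so the unthinned share in EAE microglia was not above such a background.

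Transcripts of Slc11a1, the gene of the phagosomal metal pump, rose with the ferritins. They were at 303 and 266 CPM in EAE ROS- and 151 and 155 CPM in healthy microglia, a 2.15-fold change (log2 1.10 ± 0.28, adjusted p = 0.00483). Whether a working pump is made from these transcripts in this mouse strain was not tested, so no change in metal export is read from them. The groups did not overlap, and the call ended without healthy replicate 1 (1.04, adjusted p = 0.0762). Thinned to 1500 UMIs, 38.3% and 33.5% of EAE ROS- microglia had a Slc11a1 UMI, against 19.3% and 18.1% of healthy microglia and 10.8% and 12.1% of T and natural killer cells.

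The heme-degrading enzyme itself did not pass. Hmox1 was at 75.6 and 92.8 CPM in EAE ROS- microglia and at 65.6 and 54.2 CPM in healthy ones, with no overlap and a log2 difference of 0.66 ± 0.25 (adjusted p = 0.0524). It passed narrowly under some alternatives, among them without either EAE ROS+ library (0.68, adjusted p = 0.0388) and with no low count filter (0.71, adjusted p = 0.0488), and was at 0.36 (adjusted p = 0.386) when a class needed 90% of marker UMIs. Thinned shares of microglia with a Hmox1 UMI were 9.11% and 6.78% in EAE ROS-, against 7.45% and 7.69% in healthy libraries. T and natural killer cells gave 5.41% and 12.1%, so these shares cannot be read above background. Nfe2l2 was at 241 and 201 CPM in EAE ROS- and 190 and 190 CPM in healthy microglia (log2 0.43 ± 0.25, adjusted p = 0.216).

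Of the 8 genes 6 passed the filter on low counts in microglia, and 3 rose and 1 fell. Of all 8735 genes tested, 28.4% passed, 16.2% higher and 12.2% lower. Scaling by plain totals moved the split of all calls to 1034 higher and 1601 lower, against 1412 and 1068 with TMM, and the median log2 change of all genes to -0.26, against -0.03. The 4 calls of these genes held. Markers of monocyte-derived cells moved with the comparison, at 7.87 and 8.18 per 10000 UMIs in EAE ROS- and 0.464 and 0.353 in healthy microglia, and at 66.4 and 103 in the monocyte-derived-like cells of the EAE ROS- libraries. All 4 calls also held where a class needed 90% of marker UMIs (Fth1 1.23, Ftl1 1.06, Slc40a1 -3.26, Slc11a1 1.22), a setting chosen after the data were seen. In the 21 and 7 EAE ROS- microglia with no monocyte marker UMI at all, Fth1 was at 9342 and 7468 CPM and Ftl1 at 5796 and 3778 CPM. In the 1556 and 165 such healthy microglia Fth1 was at 3810 and 4232 CPM and Ftl1 at 3047 and 2480 CPM. Slc11a1 was at 385 and 391 CPM in those EAE cells against 155 and 142 CPM in those healthy ones. Nfe2l2 was at 182 and 130 CPM in those EAE cells against 188 and 193 CPM in those healthy ones. Hmox1 had 2 and 0 UMIs there, against 65.3 and 48.7 CPM, and Slc40a1 0 and 0 UMIs, against 90.7 and 45.7 CPM. As 3 counts would be 30.4 and 130 CPM in these few EAE cells, a lower Slc40a1 level could be seen in replicate 1 only, and no direction is read for Hmox1.

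**Figure D1:**
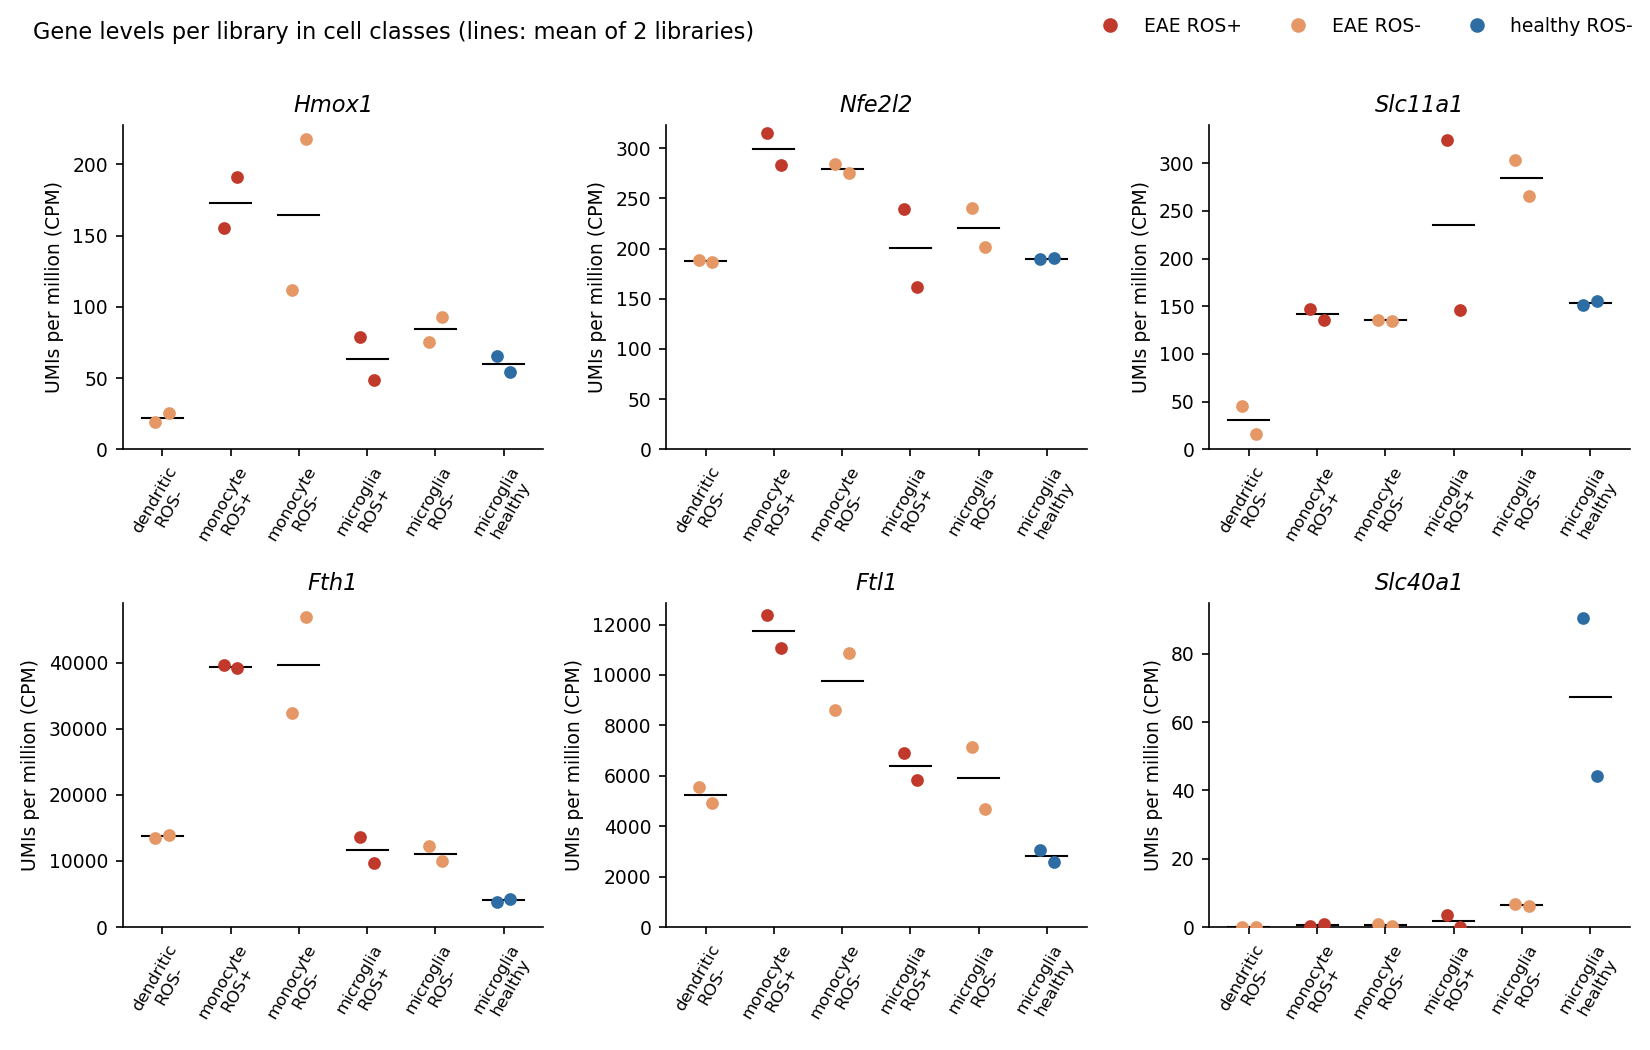
Levels of 6 genes in CPM of each class sum (vertical axes, linear from 0), with 1 point for each library and a line at the mean of the 2 libraries; red, EAE ROS+; orange, EAE ROS-; blue, healthy ROS-. Among the classes shown, Hmox1, Fth1 and Ftl1 are highest in monocyte-derived-like cells, Slc11a1 is highest in EAE ROS- microglia-like cells apart from 1 EAE ROS+ library of 26 cells, and Slc40a1 reaches 90.5 and 44.1 CPM in healthy microglia and stays at or below 6.79 CPM elsewhere.

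The lists of related genes were counted in the same fit. The median log2 change of the 15 Nrf2 target genes tested was 1.12 in EAE ROS- microglia, beside -0.03 for all genes. Of these 15 genes, 8 rose and 0 fell, a share of 53.3% beside 28.4% of all genes (16.2% higher and 12.2% lower). The count was 7 higher under plain totals and under DESeq2, and 6 higher and 1 lower without healthy replicate 1. Slc7a11, the cystine importer that feeds glutathione synthesis, had 240 and 29 UMIs in EAE ROS- microglia (54.3 and 22.6 CPM) and 11 and 0 UMIs in healthy ones (log2 4.53 ± 0.53, adjusted p = 8.11e-07; 3.06 at a 90% marker share, 3.60 without EAE ROS- replicate 1 and 8.85 without healthy replicate 1, where the remaining healthy library had 0). Slc7a11 was at 246 and 309 CPM in the monocyte-derived-like cells of the EAE ROS- libraries, and had 0 and 1 UMIs in the EAE ROS- microglia with no monocyte marker UMI. The part of free RNA from monocyte-derived-like cells in this rise, and in the rise of the other targets, was not tested. Prdx1, a peroxide-reducing enzyme, was at 706 and 705 CPM in EAE ROS- and 284 and 348 CPM in healthy microglia (1.36 ± 0.27, adjusted p = 5.09e-04). Pgd, of the pentose phosphate pathway, which makes NADPH, rose by 1.24 ± 0.24 (adjusted p = 4.33e-04), and the esterase Esd by 1.22 ± 0.24 (adjusted p = 4.27e-04). Pgd was at 109 and 144 CPM in EAE ROS- and 67.2 and 51.7 CPM in healthy microglia, and Esd at 165 and 168 CPM against 80.5 and 84.5 CPM, so that neither overlapped.

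Of 17 heme genes tested in microglia, 3 rose and 0 fell (median -0.10), a share of 17.6% that is below the 28.4% of all genes. Hp, haptoglobin, which binds free hemoglobin, was at 33.1 and 38.2 CPM in EAE ROS- and 1.13 and 1.26 CPM in healthy microglia (5.08 ± 0.48, adjusted p = 3.45e-08; 4.41 at a 90% marker share). Hp was at 226 and 280 CPM in monocyte-derived-like cells of the EAE ROS- libraries, and the part of free RNA from those cells in this rise was not tested. Alas1, the first enzyme of heme synthesis (0.84, adjusted p = 0.0199), and Blvrb, a biliverdin reductase (0.75, adjusted p = 0.0441), lost their calls under several alternatives, plain totals and DESeq2 among them. Of 14 iron genes tested, 3 rose and 3 fell (42.9%; median 0.17). Transferrin (Tf), which carries iron in the extracellular fluid, fell to 236 and 341 CPM in EAE ROS- microglia, against 820 and 761 CPM in healthy ones (-1.27 ± 0.25, adjusted p = 4.47e-04). Hfe, a partner of the transferrin receptor, fell by 1.07 on the log2 scale (adjusted p = 0.00551; lost without EAE ROS- replicate 1 or healthy replicate 1), and Slc25a37, the mitochondrial iron importer mitoferrin 1, by 1.08 (adjusted p = 0.0113; lost without healthy replicate 2). The metal importer Slc39a14 rose to 13.4 and 54.6 CPM in EAE ROS- microglia, against 3.39 and 2.52 CPM in healthy ones (3.43 ± 0.64, adjusted p = 2.72e-04). The change was 2.34 without replicate 2 of EAE ROS- and 4.20 when replicate 1 was left out instead. Of 9 Nrf2 regulators 1 rose and 1 fell, a share of 22.2% that is below the 28.4% of all genes. The repressor Bach2 fell by 1.82 on the log2 scale (adjusted p = 0.00248) and Keap1 rose by 1.02 (adjusted p = 0.0119; lost under plain totals, DESeq2 and without EAE ROS- replicate 1 or healthy replicate 1).

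Monocyte-derived-like cells carried more heme oxygenase and ferritin than the microglia of the same libraries, and less Slc11a1 and Slc40a1. The comparison used 9 sums of 3 classes in the 4 EAE libraries, blocked by library, with 3 residual degrees of freedom. With this block, here and for the states below, p-values measure how class or state differences vary between libraries. That spread is estimated with the help of all genes tested, so a very small p-value does not come from 1 gene alone. Hmox1 stood at 155 and 191 CPM in EAE ROS+ and 112 and 218 CPM in EAE ROS- monocyte-derived-like cells, and at 78.5 and 48.5 CPM in EAE ROS+ and 75.6 and 92.8 CPM in EAE ROS- microglia-like cells. All 4 monocyte-derived values were above all 4 microglial ones, by 2.24-fold (log2 1.16 ± 0.17, adjusted p = 6.96e-11). Thinned to 1500 UMIs, 13.3% and 23.7% of EAE ROS- monocyte-derived-like cells had a Hmox1 UMI, against 9.11% and 6.78% of EAE ROS- microglia. The unthinned shares were 47.6% and 58.6% against 38.5% and 28.0%. T and natural killer cells of these libraries were at 5.41% and 12.1% thinned and at 64.7 and 243 CPM, so the microglial shares cannot be read above background and no difference is read from the shares. In replicate 2 those 243 CPM were above the 218 CPM of monocyte-derived-like cells. The part of free RNA in the difference of Hmox1 CPM between the classes was not tested.

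Fth1 reached 39629 and 39157 CPM in EAE ROS+ and 32348 and 46886 CPM in EAE ROS- monocyte-derived-like cells, and 13544 and 9689 CPM in EAE ROS+ and 12240 and 9969 CPM in EAE ROS- microglia (3.98-fold; log2 1.99 ± 0.15, adjusted p = 1.54e-37; 2.66 at a 90% marker share). Ftl1 was at 12374 and 11087 CPM in EAE ROS+ and 8614 and 10869 CPM in EAE ROS- monocyte-derived-like cells, and at 6922 and 5831 CPM in EAE ROS+ and 7136 and 4676 CPM in EAE ROS- microglia (2.06-fold; 1.04 ± 0.15, adjusted p = 4.45e-11). Neither ferritin gene overlapped between the classes. Together the 2 chains took 5.20% and 5.02% of all UMIs of monocyte-derived-like cells in EAE ROS+ and 4.10% and 5.78% in EAE ROS- libraries. They took 1.94% and 1.46% in EAE ROS- microglia and 0.689% and 0.685% in healthy microglia. Between the 5th and 95th percentile, single monocyte-derived-like cells of EAE ROS- replicate 2 ran from 1.53% to 10.8%, and healthy microglia of replicate 1 from 0.259% to 1.13%.

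**Figure D2:**
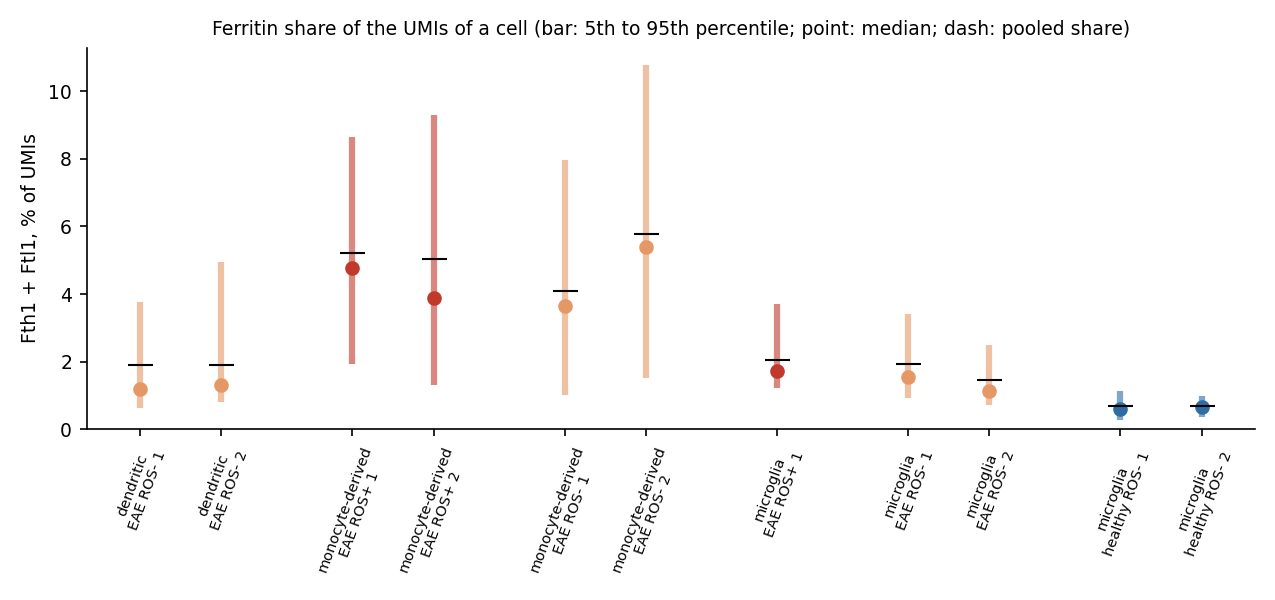
Share of the UMIs of a cell taken by Fth1 and Ftl1 together (vertical axis, percent, from 0) for each class and library with at least 20 cells. Bars run from the 5th to the 95th percentile of cells, points are medians and dashes the share of the pooled UMIs, which is 5.20% and 5.02% in EAE ROS+ monocyte-derived-like cells, 1.94% and 1.46% in EAE ROS- microglia and below 0.7% in both healthy libraries.

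The mix of the 2 chains differed as well. For every Ftl1 UMI there were 3.20 and 3.53 Fth1 UMIs in EAE ROS+ and 3.76 and 4.31 in EAE ROS- monocyte-derived-like cells, against 1.72 and 2.13 in EAE ROS- microglia and 1.24 and 1.66 in healthy microglia. These ratios are of 3′ UMIs and are read only across classes, not as amounts of one chain against the other. The ratio was higher in all 4 EAE libraries of monocyte-derived-like cells than in any microglial sum shown, and it was not tested.

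Nfe2l2 was at 315 and 283 CPM in EAE ROS+ and 284 and 275 CPM in EAE ROS- monocyte-derived-like cells, and at 239 and 162 CPM in EAE ROS+ and 241 and 201 CPM in EAE ROS- microglia, without overlap (1.54-fold; log2 0.62 ± 0.16, adjusted p = 4.77e-04). The call ended under plain totals (0.36, adjusted p = 0.0522) and in the EAE ROS- libraries alone (0.45, adjusted p = 0.0544). Slc11a1 was lower in monocyte-derived-like cells, at 147 and 136 CPM in EAE ROS+ and 136 and 135 CPM in EAE ROS- libraries, against 325 and 146 CPM in EAE ROS+ and 303 and 266 CPM in EAE ROS- microglia (log2 -0.82 ± 0.15, adjusted p = 1.08e-06). The values overlapped only at the 18 UMIs of EAE ROS+ replicate 2, whose 19 microglia were too few to enter this fit. Slc40a1 had 4 and 13 UMIs in EAE ROS+ and 7 and 4 in EAE ROS- monocyte-derived-like cells, all below 0.9 CPM (log2 -3.16 ± 0.66, adjusted p = 1.26e-05; -5.61 at a 90% marker share).

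In this comparison 4 of the 8 genes rose and 2 fell, against 33.8% of all 12912 genes tested. All genes split into 2384 higher and 1977 lower with TMM, 1520 and 2774 under plain totals, and 1250 and 1503 with DESeq2. Of 18 Nrf2 targets, 12 were higher and 0 lower in monocyte-derived-like cells (median 1.02, beside 0.02 for all genes; 10 higher under plain totals and 9 with DESeq2). Slc7a11 was at 295 and 271 CPM in EAE ROS+ and 246 and 309 CPM in EAE ROS- monocyte-derived-like cells, against 49.9 and 72.8 CPM in EAE ROS+ and 54.3 and 22.6 CPM in EAE ROS- microglia (2.96 ± 0.18, adjusted p = 1.39e-55; 3.66 without EAE ROS- replicate 1 and 4.65 at a 90% marker share). Gsr was higher by 2.28 ± 0.18 (adjusted p = 2.87e-34). The glutathione transferase Gstm1 was higher by 2.60 ± 0.30 (adjusted p = 3.29e-16; 3.73 without EAE ROS- replicate 1 and 3.32 at a 90% marker share) and Esd by 1.44 ± 0.16 (adjusted p = 3.47e-17). Of 9 Nrf2 regulators 3 were higher and 0 lower, a share of 33.3% that is near the 33.8% of all genes. The adaptor Sqstm1, which binds Keap1, was higher by 0.69 (adjusted p = 1.62e-04). The small Maf protein Maff, a partner of Nrf2, was higher by 2.06 (adjusted p = 7.93e-21; 2.66 at a 90% marker share). Mafk (0.77, adjusted p = 0.0398) lost its call under most alternatives.

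**Figure D3:**
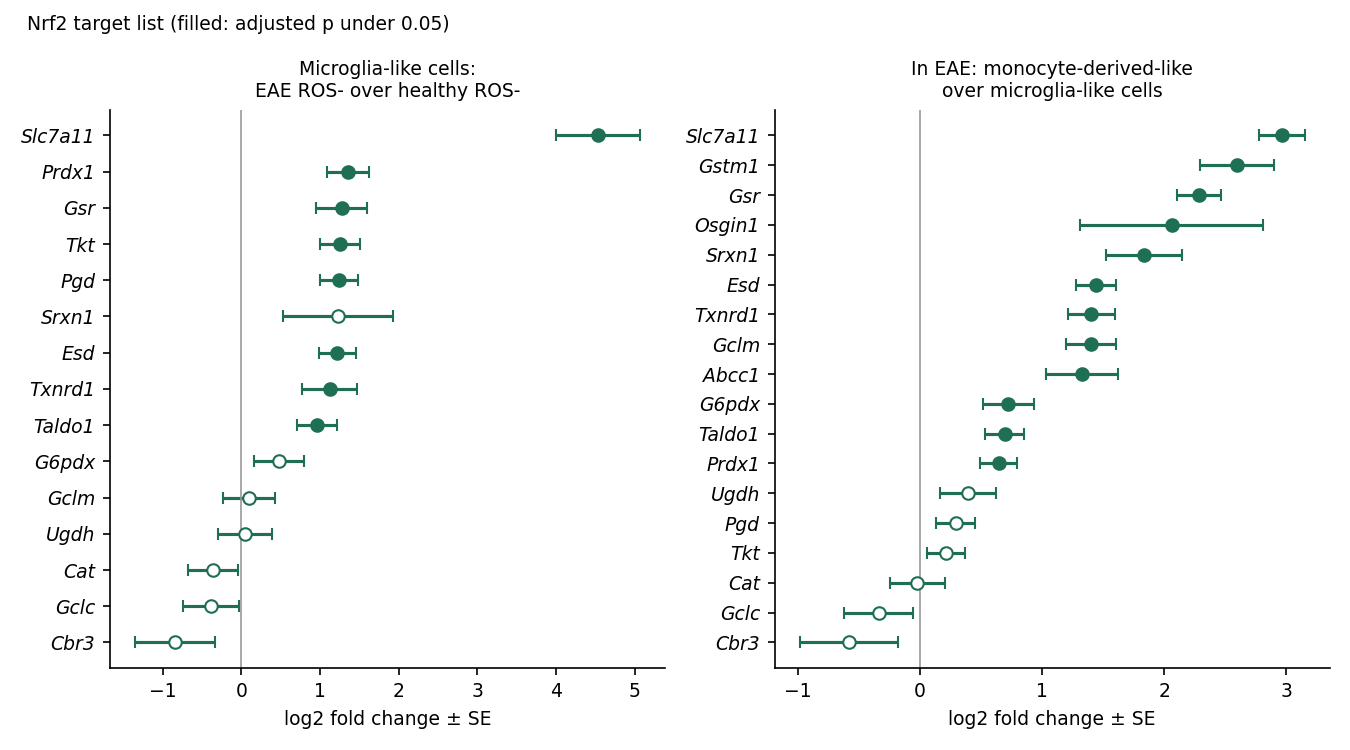
Log2 fold changes with standard errors (horizontal axes) of the Nrf2 target genes tested, 15 in microglia-like cells of EAE ROS- over healthy ROS- libraries (left) and 18 in monocyte-derived-like over microglia-like cells in EAE (right); filled points passed an adjusted p of 0.05. Slc7a11 is at 4.53 on the left and 2.96 on the right, and no gene passed with a negative value in either panel.

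The heme list held 5 higher and 2 lower of 17 tested in monocyte-derived-like cells against microglia, 41.2% beside the 33.8% of all genes. Hp was at 403 and 482 CPM in EAE ROS+ and 226 and 280 CPM in EAE ROS- monocyte-derived-like cells and at 60.6 and 40.4 CPM in EAE ROS+ and 33.1 and 38.2 CPM in EAE ROS- microglia (3.05 ± 0.18, adjusted p = 1.68e-59; 3.94 at a 90% marker share). Blvrb, which acts on the product of heme oxygenase, was higher by 1.74 ± 0.17 (adjusted p = 6.21e-23) and Alas1 by 1.62 ± 0.18 (adjusted p = 7.06e-19). Abcg2, a porphyrin exporter, was lower (-2.88 ± 0.32, adjusted p = 7.98e-18; -3.55 at a 90% marker share). Of 15 iron genes, 5 were higher and 4 lower (60%). Fbxl5, the iron-sensing ubiquitin ligase subunit that removes iron regulatory protein 2, was at 105 and 178 CPM in EAE ROS+ and 82.5 and 175 CPM in EAE ROS- monocyte-derived-like cells, against 10.7 and 48.5 CPM in EAE ROS+ and 30.3 and 37.4 CPM in EAE ROS- microglia (2.16 ± 0.19, adjusted p = 1.25e-28). Slc25a37 was higher by 1.72 ± 0.20 (adjusted p = 9.13e-17; 2.39 at a 90% marker share). The metal importer Slc39a8, at 0.949 CPM or less in all 4 monocyte-derived sums, was lower (-3.61 ± 0.55, adjusted p = 8.07e-10; -6.43 at a 90% marker share).

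Dendritic cell-like cells, compared in the EAE ROS- libraries where they occurred, held little Hmox1 and Slc11a1. Hmox1 had 5 and 8 UMIs there (18.9 and 25.4 CPM), against 112 and 218 CPM in monocyte-derived-like cells and 75.6 and 92.8 CPM in microglia of the same libraries. The dendritic values lay below all others (log2 -2.91 ± 0.34 against monocyte-derived-like cells, adjusted p = 4.10e-16; -1.75 ± 0.37 against microglia, adjusted p = 2.71e-05). Slc11a1 had 12 and 5 UMIs (45.3 and 15.8 CPM) and was lower than in monocyte-derived-like cells by 2.24 on the log2 scale (-2.24 ± 0.32, adjusted p = 9.58e-11; -3.04 without EAE ROS- replicate 1) and than in microglia (-3.06 ± 0.31, adjusted p = 1.26e-21; -3.78 without EAE ROS- replicate 1). Slc40a1 had 0 UMIs in both libraries. There 3 counts would have been 11.3 and 9.51 CPM, above the level of EAE microglia, so a lower level could not be detected.

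The pooled level of the ferritin heavy chain in dendritic cell-like cells stood between the other 2 classes. Fth1 was at 13440 and 13986 CPM, lower than in monocyte-derived-like cells (-1.53 ± 0.18, adjusted p = 6.44e-16). It was 0.47 ± 0.17 above EAE microglia (adjusted p = 0.0353), a call that ended under 9 of the alternatives, plain totals (0.25, adjusted p = 0.321) among them. T and natural killer cells of these libraries were at 14522 and 29189 CPM of Fth1, so the dendritic level was not above such a background. Both chains together took a median of 1.19% and 1.31% of UMIs in single dendritic cell-like cells. The medians were 1.54% and 1.13% in EAE ROS- microglia and 0.729% and 0.895% in T and natural killer cells. Ftl1 was at 5555 and 4919 CPM, lower than in monocyte-derived-like cells (-0.97 ± 0.18, adjusted p = 1.06e-06) and not different by the test from microglia (0.07 ± 0.17, adjusted p = 0.832). Nfe2l2, at 189 and 187 CPM, was lower than in monocyte-derived-like cells by a call that several alternatives ended (-0.62 ± 0.21, adjusted p = 0.0355; 0.228 with DESeq2), and did not differ by the test from microglia (SE 0.22, adjusted p = 0.997). Against monocyte-derived-like cells 5 of the 8 genes fell, beside 11% of all genes (4.82% higher and 6.21% lower). Against microglia 2 fell and 1 rose, beside 19.9% of all (10.6% higher and 9.23% lower). All genes split into 623 higher and 802 lower against monocyte-derived-like cells with edgeR and into 571 and 333 with DESeq2, and against microglia into 1373 and 1192 with TMM and 1094 and 1633 under plain totals.

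Of 18 Nrf2 targets, 0 were higher and 8 lower in dendritic cell-like than in monocyte-derived-like cells, beside 4.82% and 6.21% of all genes. Their median was -0.93, beside -0.20 for all genes. Gsr was at -1.64 ± 0.27 (adjusted p = 5.72e-08) and Slc7a11 at -1.01 ± 0.22 (adjusted p = 1.42e-04; lost with DESeq2). Of 17 heme genes, 0 were higher and 5 lower, among them Hp (-3.54 ± 0.32, adjusted p = 2.02e-25) and Blvrb (-2.10 ± 0.27, adjusted p = 1.05e-12; -2.75 without EAE ROS- replicate 1). Of 15 iron genes 1 was higher and 3 lower, with Slc25a37 at -2.52 ± 0.44 (adjusted p = 2.85e-07). Against microglia 5 of 18 targets were higher and 1 lower, beside 10.6% and 9.23% of all genes. Under plain totals and with DESeq2 the counts were 3 and 1. Slc7a11 was higher in dendritic cell-like cells (1.95 ± 0.25, adjusted p = 3.17e-13; 2.76 without EAE ROS- replicate 1, 3.48 at a 90% marker share).

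None of the genes passed between the dye gates within a class, which does not show that the gates are alike. In monocyte-derived-like cells, ROS+ against ROS- libraries, 0 of 12198 genes (0%) passed with edgeR. There were 706 genes below 0.05 before adjustment, and 11 higher and 72 lower calls by DESeq2. In simulated data for this comparison, the test called 22 of 50 genes with a true fold of 2 and 20 of 50 with a true fold of 0.5. It called 50 of 50 with a true fold of 4, so differences of about 2-fold can be missed. Hmox1, at 155 and 191 CPM in ROS+ and 112 and 218 CPM in ROS- cells, had a log2 difference of 0.14 ± 0.32 (adjusted p = 0.988), and the ROS- values lay on either side of the ROS+ ones. The difference was 0.07 ± 0.36 for Fth1, 0.35 ± 0.30 for Ftl1, 0.18 ± 0.19 for Nfe2l2 and 0.15 ± 0.17 for Slc11a1 (adjusted p from 0.970 to 0.995), and for Tfrc -0.05 ± 0.43. Ftl1 was above both ROS- libraries (8614 and 10869 CPM) in both ROS+ libraries (12374 and 11087 CPM). The exact permutation test of 2 against 2 libraries cannot go below p = 0.33.

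In microglia-like cells of the 2 EAE gates, with 26 and 19 cells on the ROS+ side, none of the genes passed (0.0114% of 8735 genes, that is 1, passed). Of the 10 leading genes of the EAE ROS+ microglia, 9 are cell cycle genes. Top2a, a topoisomerase of dividing cells shown after its values were seen, had a UMI in 57.7% and 36.8% of EAE ROS+, 17.1% and 24.6% of EAE ROS- and 0.458% and 2.08% of healthy microglia. Its level was 278 and 162 CPM in EAE ROS+, 76.5 and 168 CPM in EAE ROS- and 10.2 and 20.2 CPM in healthy microglia. The part of cell division in the comparisons of microglia was not tested. Slc11a1 was at 325 and 146 CPM in ROS+ and 303 and 266 CPM in ROS- microglia (-0.19 ± 0.31, adjusted p = 0.977), and Hmox1 at 78.5 and 48.5 CPM against 75.6 and 92.8 CPM (-0.29 ± 0.34, adjusted p = 0.953). Slc40a1 had 1 and 0 UMIs in ROS+ microglia. The test of whether the gate difference itself differed between monocyte-derived-like cells and microglia, which 0.833% of 12123 genes passed (0.0495% higher and 0.784% lower), gave 0.56 ± 0.36 for Hmox1 (adjusted p = 0.872), 0.44 ± 0.29 for Slc11a1 and 0.12 ± 0.25 for Fth1. No gene of the heme, iron, regulator or target lists passed between the gates in monocyte-derived-like cells, where the target median was 0.05 beside 0.01 for all genes.

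**Figure D4:**
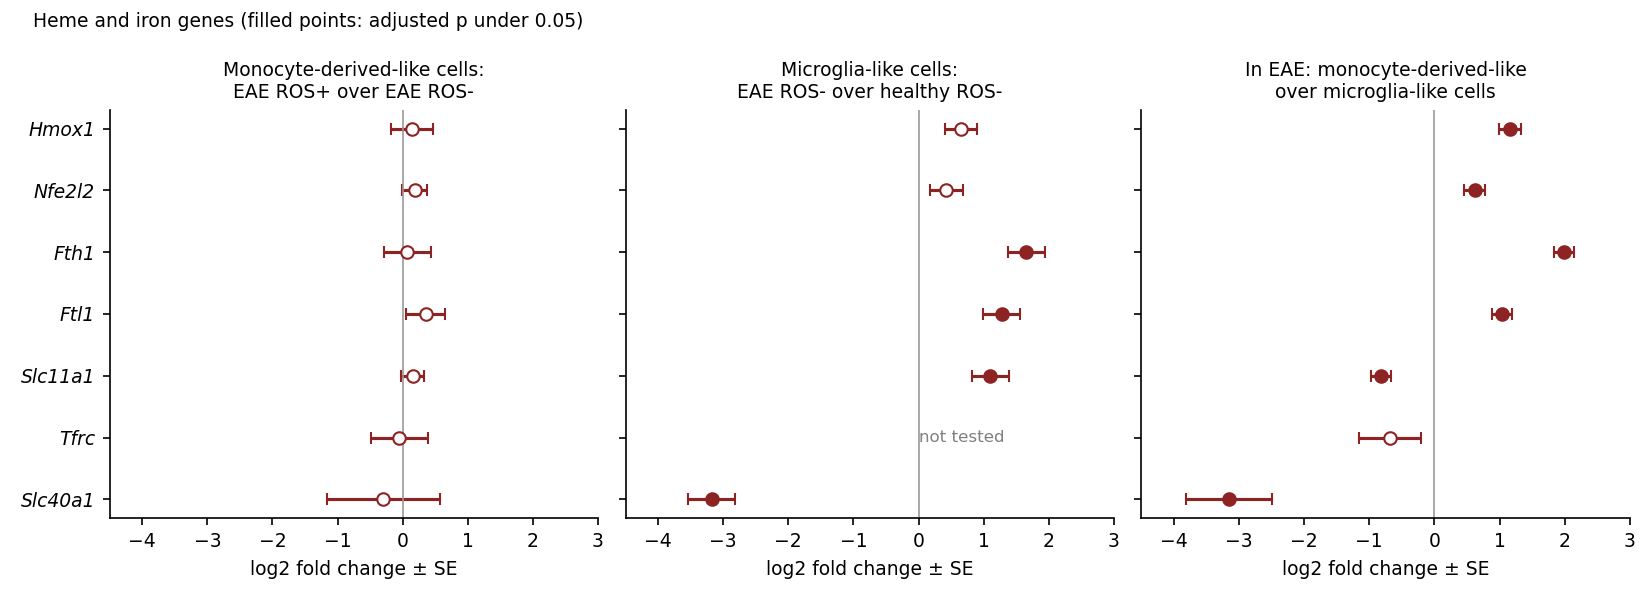
Log2 fold changes with standard errors (horizontal axes) of 7 genes in monocyte-derived-like cells of EAE ROS+ over EAE ROS- libraries (left), in microglia-like cells of EAE ROS- over healthy ROS- libraries (middle) and in monocyte-derived-like over microglia-like cells in EAE (right); filled points passed an adjusted p of 0.05. On the left all points are open, in the middle Fth1, Ftl1 and Slc11a1 are filled on the higher side and Slc40a1 at -3.18, and on the right Slc11a1 is filled at -0.82.

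The sums over all sorted cells mix the classes. EAE ROS- against healthy libraries gave Fth1 at 24647 and 41033 CPM against 3815 and 4405 CPM (11.2-fold; log2 3.49 ± 0.39, adjusted p = 2.60e-04) and Hmox1 at 96.0 and 197 CPM against 65.7 and 50.3 CPM (3.51-fold; 1.81 ± 0.35, adjusted p = 0.00439; 1.17 without EAE ROS- replicate 2). Ftl1 (2.14), Nfe2l2 (0.94) and Slc11a1 (0.62, adjusted p = 0.0497, lost without any single library) rose too. Nfe2l2 lost its call under plain totals (0.46, adjusted p = 0.0846) and without healthy replicate 1 (0.92, adjusted p = 0.0545). Slc40a1 fell to 3.17 and 1.09 CPM in EAE ROS-, against 90.7 and 50.3 CPM in healthy libraries (-4.57 ± 0.56, adjusted p = 4.08e-04; -5.49 without EAE ROS- replicate 1). In these totals a smaller share of cells of a type and less RNA per cell cannot be told apart. Of all 13631 genes 34% passed, 2715 higher and 1914 lower with TMM and 1696 and 4021 under plain totals, which moved the median of all genes to -0.48. Between the EAE gates 2.16% of genes and none of the 7 tested here passed, with Slc40a1 at 0.299 and 1.23 CPM in ROS+ and 3.17 and 1.09 CPM in ROS- libraries (-1.45 ± 0.65, adjusted p = 0.411; -1.43 and 0.00772 with no low count filter).

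Within monocyte-derived-like cells, heme oxygenase and ferritin followed the state of the cell. Each cell was given the highest of 7 marker scores if it was at least 1 SD above the mean over all such cells, which left 1717 of them with no state. Each state was set against the mean of the others with the library as a block (27 sums of at least 20 cells). None of the 8 genes is a state marker; Slc40a1, Tfrc and Nqo1 were too low to be tested. A score gives a range and not a cell type: 29 to 131 cells per state lay within 0.1 SD of the limit. The 131 were among the 280 cells of the class II state.

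Cells scored for the monocyte genes Ly6c2, Plac8, Ifitm6, Lrg1 and Vcan had less Hmox1, Fth1 and Ftl1 than the mean of the other states. Hmox1 was at 67.2 and 92.1 CPM there in EAE ROS+ and 55.4 and 112 CPM in EAE ROS- libraries, the lowest of the states in both EAE ROS+ libraries (log2 -1.08 ± 0.13 against the other states, adjusted p = 3.58e-08). Interferon-scored cells in EAE ROS- replicate 1 and class II high cells in EAE ROS- replicate 2 were lower still. Fth1 was at 18336 and 19960 CPM in EAE ROS+ and 13733 and 24729 CPM in EAE ROS- libraries (-1.16 ± 0.08, adjusted p = 1.01e-14), and Ftl1 fell by 0.93 ± 0.06 on the log2 scale (adjusted p = 3.99e-14). Slc11a1 was lower as well (-0.40 ± 0.13, adjusted p = 0.0213; lost without EAE ROS- replicate 2), so that 4 of the 5 genes tested fell, beside 31.4% of 6957 genes in either direction. The lists went both ways in these cells. Nrf2 targets were 3 higher and 4 lower of 16 tested (median -0.03), and regulators 2 and 2 of 8. Heme genes were 2 higher and 5 lower of 12, and iron genes 1 and 3 of 11. Among them the repressor Bach1 was higher (1.33 ± 0.14, adjusted p = 4.00e-09), and Slc7a11 (-1.34 ± 0.14, adjusted p = 3.10e-09) and Blvrb (-0.90 ± 0.11, adjusted p = 7.03e-08) were lower. Lcn2, the siderophore-binding lipocalin, was higher (1.95 ± 0.29, adjusted p = 2.09e-06; 2.74 at a stricter score limit) and Gsr too (0.66 ± 0.11, adjusted p = 5.04e-06).

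Cells scored for Saa3, Cxcl1 and Cxcl2 had the largest fitted rise of Hmox1. It was at 179 and 258 CPM in EAE ROS+ and 166 and 333 CPM in EAE ROS- libraries, above the mean of the states in 4 of 4 libraries (0.67 ± 0.09, adjusted p = 1.00e-05). Fth1 (0.42 ± 0.07, adjusted p = 3.81e-05), Ftl1 (0.41 ± 0.06, adjusted p = 7.87e-06) and Slc11a1 (0.36 ± 0.11, adjusted p = 0.0225) were higher as well, 4 of 5 genes beside 9.18% of all (4.77% higher and 4.41% lower). The call of Slc11a1 ended without EAE ROS+ replicate 1, EAE ROS+ replicate 2 or EAE ROS- replicate 1. Of the lists, Nrf2 targets were 3 higher and 1 lower of 16 tested, and heme genes 4 and 0 of 12. Iron genes were 2 higher and 0 lower of 11, and Nrf2 regulators 1 and 0 of 8. Slc7a11 (0.76 ± 0.10, adjusted p = 7.87e-06) and Hp (0.72 ± 0.12, adjusted p = 6.69e-05) were among those that rose.

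Cells scored for Nos2, Inhba and Il6, inflammatory genes, had the most of the ferritin heavy chain in 3 of the 4 libraries, with Fth1 at 49298 and 50397 CPM in EAE ROS+ and 51537 and 57664 CPM in EAE ROS- libraries (0.62 ± 0.06, adjusted p = 4.72e-09). Hmox1 was at 200 and 219 CPM in EAE ROS+ and 142 and 271 CPM in EAE ROS- libraries (0.54 ± 0.10, adjusted p = 1.11e-04), and Ftl1 did not pass (0.12 ± 0.06, adjusted p = 0.167). These were 2 of 5 genes, beside 17.3% of all (9.27% higher and 7.99% lower). Nrf2 targets were 6 higher and 1 lower of 16 tested here, and regulators 3 and 1 of 8. Heme genes were 2 higher and 1 lower of 12 (median -0.06), and iron genes 3 and 2 of 11. The related genes that rose included Slc7a11 (1.28 ± 0.10, adjusted p = 5.66e-12), Alas1 (0.99 ± 0.08, adjusted p = 2.54e-11), Sqstm1 (0.57 ± 0.08, adjusted p = 4.45e-07) and Fbxl5 (0.57 ± 0.09, adjusted p = 1.43e-05), with Bach1 lower (-0.80 ± 0.17, adjusted p = 6.94e-04; lost without EAE ROS- replicate 2).

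Macrophages scored for Ms4a7, Apoe and Apoc2 favoured the light chain. Ftl1 was at 13817 and 15185 CPM in EAE ROS+ and 11360 and 14916 CPM in EAE ROS- libraries (0.58 ± 0.06, adjusted p = 7.29e-10), whereas Fth1 did not pass (0.10 ± 0.07, adjusted p = 0.330). Slc11a1 was higher than in any other state in 3 of the 4 libraries, at 149 and 168 CPM in EAE ROS+ and 178 and 226 CPM in EAE ROS- libraries (0.47 ± 0.11, adjusted p = 0.00164; lost at a stricter score limit). Hmox1 was higher by 0.35 ± 0.10 (adjusted p = 0.0118), a call that ended without EAE ROS+ replicate 1 or either EAE ROS- library. The 3 of 5 genes stood beside 19.3% of all (8.64% higher and 10.7% lower). Nrf2 targets were 1 higher and 5 lower of 16 tested in this state, and regulators 0 and 1 of 8. Heme genes were 4 higher and 1 lower of 12, and iron genes 2 and 1 of 11. Here Alas1 (-0.79 ± 0.10, adjusted p = 2.00e-07) and Txnrd1 (-0.85 ± 0.13, adjusted p = 6.03e-06) fell, and Lrp1 (0.70 ± 0.11, adjusted p = 6.00e-06) and the lysosomal heme transporter Slc48a1 (0.72 ± 0.12, adjusted p = 4.24e-05) rose.

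In cells scored for Arg1 and Mmp12, Hmox1 was at 177 and 282 CPM in EAE ROS+ and 139 and 235 CPM in EAE ROS- libraries (0.52 ± 0.10, adjusted p = 1.39e-04; 0.0601 without EAE ROS+ replicate 2). Ftl1 (0.43 ± 0.06, adjusted p = 6.12e-07) and Fth1 (0.32 ± 0.07, adjusted p = 7.11e-04) rose with it. Nfe2l2 passed in this state and in no other at this score limit, on the lower side (-0.35 ± 0.09, adjusted p = 0.00787; lost without EAE ROS+ replicate 2 or EAE ROS- replicate 2). Slc11a1 did not pass (0.27 ± 0.11, adjusted p = 0.0751; 0.30 and 0.0487 under plain totals). Together 4 of 5 genes passed, beside 16.7% of all (8.18% higher and 8.51% lower).

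Class II high cells, scored for H2-Aa, H2-Ab1 and H2-Eb1, had low Slc11a1 at 87.6 CPM in EAE ROS+ replicate 1 and 59.8 and 58.5 CPM in the EAE ROS- libraries (-1.07 ± 0.18, adjusted p = 1.25e-04). Of the 280 cells of this state 131 lay within 0.1 SD of the score limit, and the stricter limit gave no value for it. Hmox1 was at 117 CPM in EAE ROS+ replicate 1 and 68.8 and 86.6 CPM in the EAE ROS- libraries (-0.75 ± 0.16, adjusted p = 0.00244; -0.48 and 0.190 without EAE ROS- replicate 2). Ftl1 was slightly lower (-0.30 ± 0.07, adjusted p = 0.00562; lost without EAE ROS- replicate 2) and Fth1 did not pass (-0.04 ± 0.08, adjusted p = 0.889), so 3 of 5 genes fell, beside 4.86% of all (2.87% higher and 1.98% lower). All genes split into 200 higher and 138 lower calls with TMM and 149 and 168 under plain totals. In interferon-scored cells, Fth1 (-0.26 ± 0.07, adjusted p = 0.00758; lost without EAE ROS+ replicate 2) and Ftl1 (-0.31 ± 0.06, adjusted p = 2.08e-04) fell, 2 of 5 beside 14.1% of all (10.3% higher and 3.82% lower). Hmox1, at 100.5 and 152 CPM in EAE ROS+ and 51.9 and 199 CPM in EAE ROS- libraries, did not pass (-0.26 ± 0.12, adjusted p = 0.146; -0.40 and 0.0402 without EAE ROS- replicate 2).

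**Figure D5:**
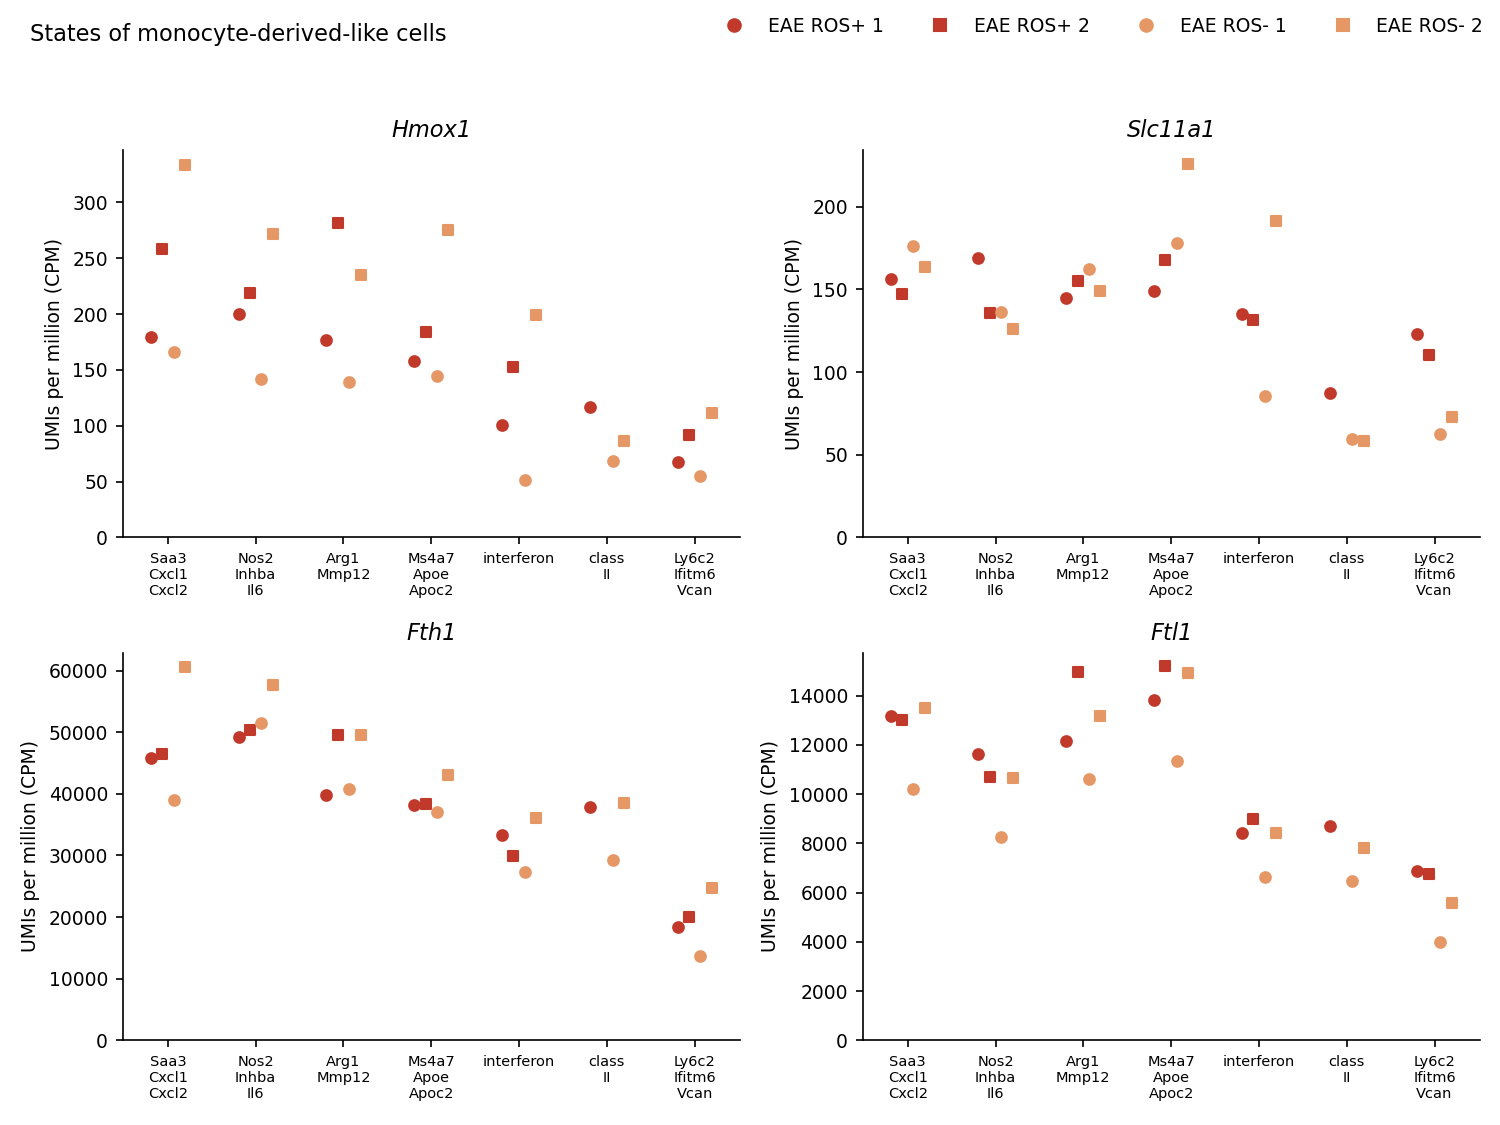
Levels of Hmox1, Slc11a1, Fth1 and Ftl1 in CPM (vertical axes, linear from 0) in 7 states of monocyte-derived-like cells named by their marker genes, with 1 point for each EAE library with at least 20 cells of the state; red, EAE ROS+; orange, EAE ROS-; circles, replicate 1; squares, replicate 2. The Ly6c2 state has the lowest Fth1 and Ftl1 point of each library, and Hmox1 there lies between 55.4 and 112 CPM against 166 to 333 CPM in the Saa3 state.

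The 2 rarest genes gave values near the limit of counting. Nqo1 had 7 and 2 UMIs in EAE ROS+ and 1 and 4 in EAE ROS- monocyte-derived-like cells, and 1 UMI in all microglia. No direction is read from them. Tfrc, whose product takes up transferrin-bound iron, had 2.37 and 3.56 CPM in EAE ROS+ and 2.04 and 4.32 CPM in EAE ROS- monocyte-derived-like cells, and the groups overlapped. EAE ROS+ microglia had 0 and 0 Tfrc UMIs, EAE ROS- microglia 19 and 12 (4.30 and 9.35 CPM) and healthy microglia 15 and 1 (3.39 and 1.26 CPM). The EAE ROS- values were above the healthy ones, but the gene was too low to be tested there, and against microglia the monocyte-derived-like cells did not differ by the test (-0.68 ± 0.47, adjusted p = 0.279).

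Across the 11 sums of a class and a library, which share libraries, depth and markers, log2 levels of Fth1 and Ftl1 had a Pearson correlation of 0.96, Nfe2l2 and Ftl1 0.90, Hmox1 and Nfe2l2 0.82, and Fth1 and Slc40a1 -0.84. Among 3424 other genes the profiles most like a member were Naip2 (0.987), Nus1 (0.960) and Cyc1 (0.951) for Hmox1, Tgfbi (0.995), Prdx5 (0.992) and Ccrl2 (0.989) for Fth1, and Cyba (0.988), Cxcl2 (0.982) and Apoc2 (0.973) for Ftl1. For Nfe2l2 they were Rnf149 (0.966), Ccdc23 (0.955) and Tmem189 (0.953), for Slc40a1 Adap2 (0.984), Rnf13 (0.982) and Srgap2 (0.981), and for Slc11a1 Emr1 (0.985), Dgkz (0.981) and Pebp1 (0.974). These are descriptions of profiles that mostly separate the classes, and no test was made of them.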

How the data were processed

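Single-cell RNA was measured in 6 libraries of CD11b+ spinal cord cells with the Chromium 3′ v2 assay, which counts transcripts from their 3′ end. For each library the authors deposited a matrix of raw UMI counts of genes in cell barcodes, and it was used unchanged. A library held between 915197 UMIs (healthy replicate 2) and 23407825 UMIs (EAE ROS+ replicate 1), so healthy microglia of replicate 2 are the least precisely measured. Per the submitters' processing notes, Cell Ranger 2.0.1, Seurat 3, R 3.4.2 and the mouse build mm10 were used. The annotation and the calling of cells are not stated in these sources. All values below were computed from those counts.

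A cell needed 200 genes or more and no more than 10% mitochondrial UMIs, and 1 barcode failed. T and natural killer, B, neutrophil and endothelial cells (with at least 5 UMIs and 3 kinds of their markers) were set aside first, and dendritic cell-like cells also needed 2 kinds of marker. No doublet caller was run, and cells without a 60% share of class markers stayed unassigned. The classes are rebuilt from markers and may differ from those of the study. Counts were summed per library and class, with at least 20 cells a sum in the comparisons between classes and between states. The fit within microglia and the difference of the gates had no such minimum and used the sum of 19 EAE ROS+ microglia too. Groups were tested with the edgeR 4.0.16 quasi-likelihood test (R 4.3.3, TMM factors, low genes dropped by filterByExpr at 10 counts, Benjamini-Hochberg over all genes tested, threshold 0.05). DESeq2 1.42.0, plain totals, no filter, stricter class and state limits, EAE ROS- or EAE libraries only, a replicate block and each library left out in turn were alternatives. A 90% marker share and the removal of microglia with an endothelial UMI were added after the data were seen. Standard errors are the log2 fold change divided by the square root of F. The test was checked on simulated data. The floor of 3 counts used for a gene at 0 covers counting error only. Thinning (Python 3.11.15, numpy 2.4.6) used a fixed seed.

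The genes described, the related lists and the markers were chosen with earlier results of these data known. The lists hold 21 heme, 22 iron, 9 Nrf2 regulator and 20 Nrf2 target genes; up to 4 genes a list and comparison, those with the smallest adjusted p, could be named, and for likeness the 3 genes with the highest correlation. Transferrin (Tf) is listed under the older symbol Trf in the files. Gene coordinates and hairpins are from GENCODE M21 on GRCm38; hairpin sequences were read from the GENCODE transcripts.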

Additional observations from a re-analysis of the deposited data

How the results depend on the processing

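Of 89 log2 fold changes of the 8 genes, 46 passed the test; 30 of these kept their direction and call under every alternative run, 16 lost the call under at least 1, and none changed sign. Among 841 alternative values 753 stayed on the same side, 43 lost and 8 gained a call, and 37 changed sign, all of differences of 0.38 or less that had not passed. For the 133 named genes of the lists, 1009 of 1159 alternative values kept the call, 150 lost it and 0 changed sign. The number of all genes called changed by these alternatives as follows. For the dye gate in monocyte-derived-like cells it was 83 with DESeq2, 290 with no filter and 122 with the replicate block. In microglia it was 2 with DESeq2, 24 with no filter, 15 with the replicate block, 0 with EAE libraries only, 81 with EAE libraries only and the block, and 10 without cells that had an endothelial UMI. In all cells it was 1006 with no filter, 596 with the block, 153 with EAE libraries only and 1839 with both. DESeq2 called 2753 genes between monocyte-derived-like cells and microglia, 904 between dendritic cell-like and monocyte-derived-like cells and 35 for the difference of the gates, and the stricter score limit 416 in the Saa3 state; the causes were not tested. Leaving out 1 library at a time gave 1 to 103 calls for the gate in monocyte-derived-like cells, 0 to 19 in microglia and 123 to 632 in all cells, 13 to 54 for the difference of the gates, 1419 to 2788 for EAE against healthy microglia and 2364 to 4295 in all cells. It gave 2718 to 4019 for monocyte-derived-like cells against microglia, 788 to 1519 for dendritic cell-like cells against monocyte-derived-like cells and 1384 to 2508 against microglia. For the states it gave 498 to 953 (Arg1), 101 to 284 (class II), 501 to 882 (interferon), 1377 to 2157 (Ly6c2), 922 to 1139 (Ms4a7), 646 to 1026 (Nos2) and 256 to 477 (Saa3). Plain totals moved the median log2 change of all genes to -0.18 between the gates in all cells, to -0.22 between monocyte-derived-like cells and microglia, to -0.35 between dendritic cell-like cells and microglia and to -0.48 between EAE and healthy cells.

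Values that changed sign for the gate in monocyte-derived-like cells were Fth1 under plain totals (-0.01) and a 90% marker share (-0.04) and Tfrc with the replicate block (0.01); with 1 library left out Hmox1 ran between -0.26 and 0.73, Fth1 between -0.18 and 0.38, Slc40a1 between -0.70 and 0.25 and Tfrc between -0.49 and 0.62. For the gate in microglia, Fth1 (-0.04) and Ftl1 (-0.01) did so with no filter, and with 1 library left out Nfe2l2 ran between -0.79 and 0.16, Fth1 between -0.53 and 0.34, Ftl1 between -0.36 and 0.43 and Slc11a1 between -1.30 and 0.24. For the gate in all cells the ranges were -0.07 to 1.04 for Hmox1, -0.23 to 0.12 for Slc11a1 and -0.71 to 0.12 for Tfrc. Between dendritic cell-like cells and microglia, Ftl1 was at -0.15 under plain totals, -0.04 in EAE ROS- libraries only, -0.07 without cells that had an endothelial UMI and -0.15 to 0.30 with 1 library left out, and Nfe2l2 at 0.03 under stricter class limits and -0.24 to 0.21. For the difference of the gates, Fth1 was at -0.04 under plain totals and -0.36 to 0.68, and Ftl1 at -0.24 to 0.91. In the states, Slc11a1 was at -0.09 under the stricter limit in the Nos2 state and at -0.01 to 0.26 in the interferon state, Nfe2l2 at -0.03 to 0.20 in the Ly6c2 and -0.06 to 0.02 in the class II state, and Fth1 at -0.13 to 0.01 in the class II state. Nfe2l2 in the Nos2 state passed under the stricter limit (0.24, adjusted p = 0.0448).

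The share of cells with a UMI depended on thinning. The EAE ROS- minus healthy difference in microglia was -9.04 percentage points for Slc40a1 at 1500 UMIs and -14.2 unthinned, 17.2 for Slc11a1 against 42.1 unthinned and 12.3 at 1000 UMIs, and 0.374 for Hmox1 against 17.3 unthinned and 2.54 at 1000 UMIs. For Hmox1 in EAE ROS- monocyte-derived-like cells minus microglia it was 10.6 at 1500 UMIs and 19.9 unthinned. No label says that replicate numbers pair libraries, and there are 2 numbers; deviations of same-numbered EAE libraries correlated at 0.436 in monocyte-derived-like cells, 0.473 in all cells and 0.0999 in microglia. The replicate block changed 1 call of the 8 genes, Hmox1 in EAE ROS- against healthy microglia (0.67, adjusted p = 0.0453). The class II state under the stricter limit gave no value, and the 90% marker share was not run for the gate in microglia or for the difference of the gates, since too few EAE ROS+ microglia remain. Healthy replicate 2, with 202 cells, limits every comparison with healthy microglia, and Nqo1, Tfrc and Slc40a1 in EAE cells rest on few counts.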
